A study of Saccharomyces cerevisiae with 27 samples.

Results

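The genes described here move electrons from NADH and carry glycerol through the cell in the budding yeast Saccharomyces cerevisiae. They are the 9 genes NDI1, NDE1, NDE2, GUT1, GUT2, GPD1, GPD2, STL1 and FPS1, chosen by gene name for their roles, out of 6709 genes in the authors' deposited table. All 9 were found in it.

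Budding yeast has no proton-pumping complex I. Single-subunit NADH dehydrogenases pass electrons from NADH to ubiquinone instead. Ndi1 faces the mitochondrial matrix, and Nde1 and Nde2 face the cytosolic side of the inner membrane. A second route is the glycerol-3-phosphate shuttle, in which the cytosolic dehydrogenases Gpd1 and Gpd2 use NADH to reduce dihydroxyacetone phosphate and the mitochondrial, FAD-dependent dehydrogenase Gut2 returns the electrons to ubiquinone. When respiration cannot take up NADH, glycerol made through Gpd1 and Gpd2 is a sink for it, and glycerol kinase Gut1 leads glycerol back into metabolism. Stl1 takes glycerol up with protons, and the channel Fps1 lets it out.

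RNA was sequenced as poly-A selected, paired-end libraries from 27 samples in 9 groups of 3, which the submitters call biological replicates, and the design sets them against each other in 5 pairs. OLE1met250 against OLE1met0 is a strain whose OLE1 promoter was replaced by that of MET3, a promoter that methionine shuts. OLE1met250 is described as low and OLE1met0 as high in lipid unsaturation, OLE1 being the acyl-CoA desaturase gene. In spt23p90 against spt23p90-dox, and in mga2p90 against mga2p90-dox, pCM188 plasmids carried p90, the active fragment of a membrane-bound activator of OLE1 (SPT23 or MGA2), which doxycycline shuts off in the second group of each pair. ArgonST is the background strain BY4742 after 90 min of argon, ArgonLT the same strain from a microfermenter under long-term hypoxia, and both are set against BY, its aerobic growth. The labels give S288C as the strain of all groups.

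Several limits of these groups touch every value below. The treatment label of OLE1met250 reads 0 uM methionine (repressed), while the title carries the number 250 and the table's header names methionine. OLE1 was at a log2 of -0.03 there in the authors' deposited table, with q = 0.925, so the target gene does not check that label. If methionine was added in OLE1met250, as the header says, methionine itself and the shut OLE1 promoter cannot be told apart there. With either fragment, expression of the fragment and absence of doxycycline cannot be told apart, nor can the microfermenter and oxygen limitation in ArgonLT. MGA2 was 13.3-fold higher in mga2p90 and SPT23 5.86-fold higher in spt23p90, each over its doxycycline group, as their labels say. MGA2 was also 20.2-fold higher in OLE1met250 than in OLE1met0 (log2 4.33, q 0.000304), where no fragment is labelled, and lower in spt23p90 than in spt23p90-dox (log2 -1.46, q 0.000304).

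The table gives 1 log2 fold change and 1 q value, the authors' false discovery measure, per gene and comparison, with no value per library. No level in a single sample, SD or interval can therefore be given, the depth is unknown, and replicate spread enters only through the authors' q. A gene is said here to have risen or fallen at a q under 0.05, and a value at a q of 1 is taken as not tested. Each value is a change in a gene's share of the RNA, and levels of different genes cannot be compared.

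Of the 45 values of the 9 genes, 40 were tested and 16 passed the threshold, 10 higher and 6 lower. In ArgonLT against BY, 3 rose and 2 fell among 8 tested, where 42.5% of all tested genes were called, 24.1% higher and 18.4% lower. In ArgonST against BY, 2 rose and 1 fell among 7 tested, against 7.27% of all tested genes, 4.86% higher and 2.41% lower. In OLE1met250 against OLE1met0, 4 rose and none fell among 9 tested, against 31.2% of all tested genes, 16.7% higher and 14.5% lower. In mga2p90 against mga2p90-dox, 1 rose and 2 fell among 9 tested, against 20.8% of all tested genes, 12.2% higher and 8.58% lower. In spt23p90 against spt23p90-dox, 1 of 7 tested fell and none rose, against 12.4% of all tested genes, 6.86% higher and 5.49% lower. The median of the tested members and that of all tested genes, both log2 fold changes in the authors' deposited table, were 0.27 and 0.10 in ArgonLT, 0.36 and 0.05 in ArgonST, and 0.46 and -0.01 in OLE1met250. They were 0.03 and -0.02 with the MGA2 fragment, and -0.18 and -0.04 with the SPT23 fragment.

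**Figure D1:**
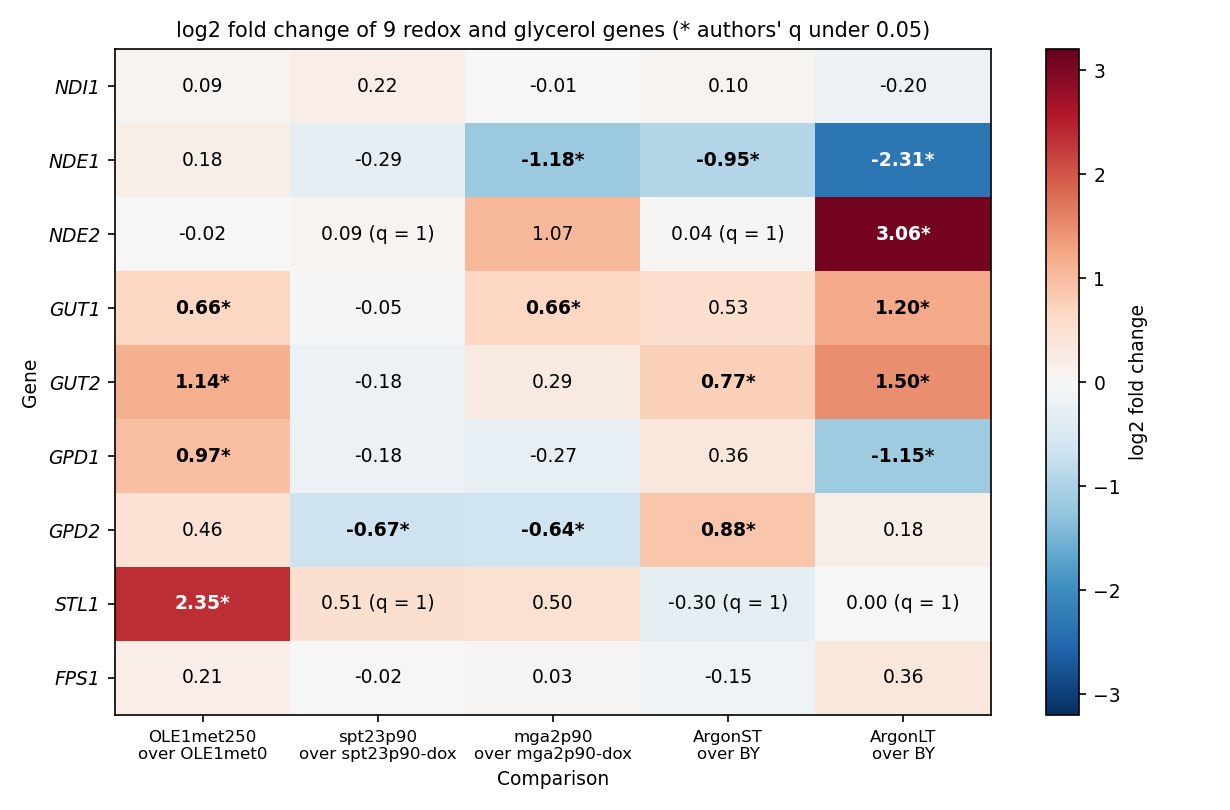
The authors' log2 fold change of each of the 9 genes (rows) in each of the 5 comparisons (columns), first named group over second. Red is higher and blue lower in the first named group, asterisks mark a q under 0.05, and "q = 1" marks values taken as not tested. NDE1 and NDE2 lie at opposite ends in ArgonLT, at -2.31 and 3.06, while the rows of NDI1 and FPS1 hold no asterisk.

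The external NADH dehydrogenases went opposite ways under long-term hypoxia. NDE2 (YDL085W, chromosome IV, 303211 to 304848 in build R64, plus strand) was 8.32-fold higher in ArgonLT than in BY in the authors' deposited table (log2 3.06, q 0.000304). NDE1 (YMR145C, chromosome XIII, 554793 to 556475, minus strand) was 4.95-fold lower in ArgonLT than in BY, with a log2 of -2.31 at the same q. That q is the lowest in the table and was shared by 1136 genes in ArgonLT, so it ranks nothing. By size, NDE2 was the 122nd highest and NDE1 the 65th lowest of 5641 tested genes with a finite value.

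The ratio of NDE2 to NDE1 transcripts was thus 41.2-fold higher in ArgonLT than in BY, a log2 difference of 5.37 between the 2 genes' values. A test of this difference was not possible without values per library. NDE2 was not tested in ArgonST against the same BY group, and its level in BY is unknown. The 8.32-fold and 41.2-fold values may therefore rest on a low level of NDE2 in BY. The coding sequences of NDE1 and NDE2 were identical at 62.3% of 1632 aligned bases in build R64. No identical run in that alignment was over 11 bases. How reads were assigned to the 2 genes was not tested.

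After 90 min of argon NDE1 was lower too, 1.93-fold lower in ArgonST than in BY (log2 -0.95, q 0.000826 in the authors' deposited table), the 111th lowest of 5436 genes. NDE2, with a log2 of 0.04 and a q of 1, was not tested there. Between the hypoxic groups, with BY cancelling out, NDE2 was 8.10-fold higher and NDE1 2.56-fold lower in ArgonLT than in ArgonST, both differences without a test.

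NDE1 also fell with the MGA2 fragment, 2.26-fold lower in mga2p90 than in mga2p90-dox (log2 -1.18, q 0.000304, the 115th lowest of 5559 genes). NDE2 (log2 1.07, q 0.0638) did not pass the threshold in that comparison. The NDE2 to NDE1 ratio, computed from the values in the authors' deposited table, was 4.77-fold higher in mga2p90 than in mga2p90-dox, without a test. In spt23p90 NDE1 was at -0.29 (q 0.387) and NDE2 at 0.09 with a q of 1. In OLE1met250 neither gene was called, with log2 values of 0.18 (q 0.696) for NDE1 and -0.02 (q 0.953) for NDE2. NDE1 was therefore lower in 3 comparisons and called higher in none, and NDE2 was higher in 1 of the 3 in which it was tested.

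NDI1, the internal enzyme (YML120C, chromosome XIII, 28266 to 29807, minus strand), was tested in all 5 comparisons and called in none. Its log2 values in the authors' deposited table ran from -0.20 in ArgonLT (q 0.528) to 0.22 with the SPT23 fragment (q 0.465). This range of 0.42 was the narrowest of the 9 genes, beside 2.49 for NDE1 and 3.08 for NDE2. The smallest change called in any comparison was an absolute log2 of 0.51, larger than any value of NDI1.

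**Figure D2:**
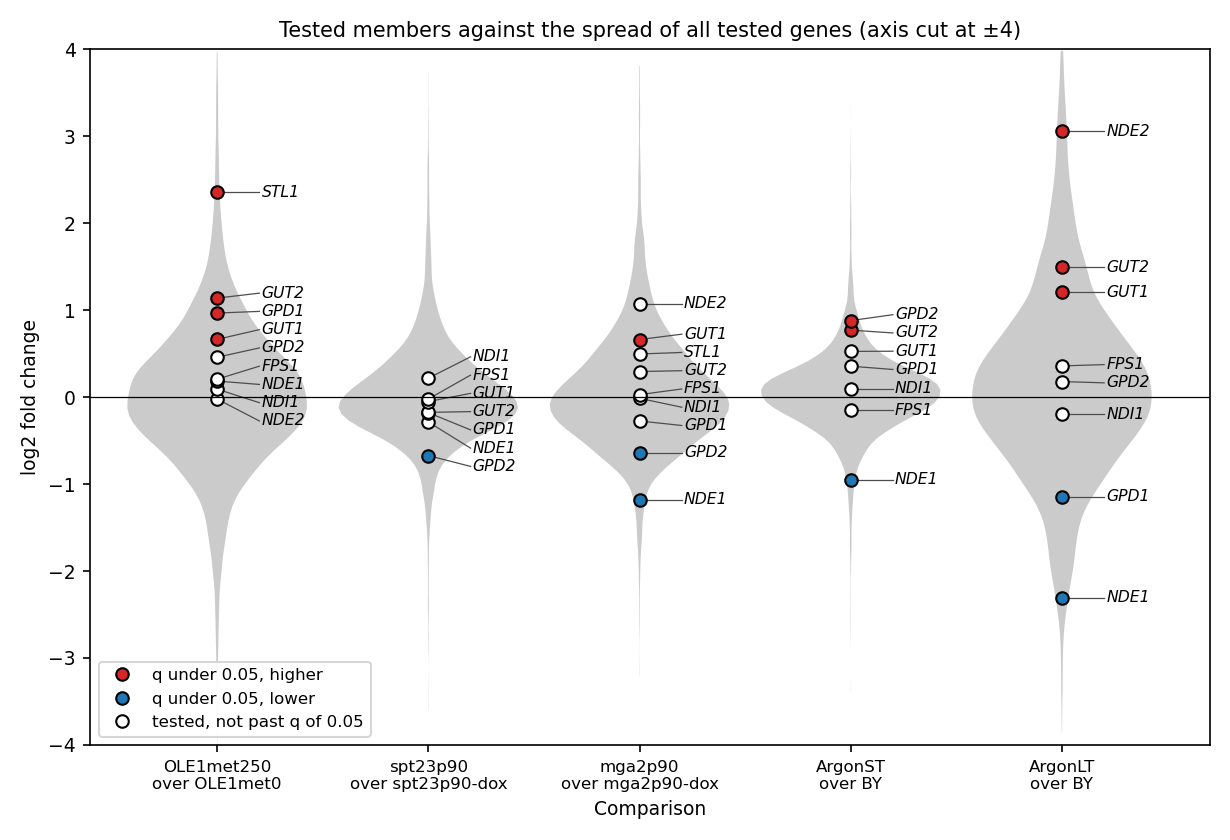
Log2 fold changes (vertical axis) of the tested members as points, over the distribution of all tested genes (grey) in each comparison, with the axis cut at 4 on either side. Red points are higher and blue points lower at a q under 0.05, and white points are tested and not called. NDE2 in ArgonLT and STL1 in OLE1met250 lie in the upper tails at 3.06 and 2.35, and NDE1 lies in the lower tail in mga2p90, ArgonST and ArgonLT.

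The promoter windows of both external dehydrogenase genes are printed because these genes moved in opposite directions. Each window, read from the R64 reference, runs from 250 bases before to 50 after the start of the coding sequence and is given 5′ to 3′ in the direction of the gene. Capitals mark matches on either strand to the motifs searched in all windows.
NDE1 (chrXIII:556426-556725, minus strand): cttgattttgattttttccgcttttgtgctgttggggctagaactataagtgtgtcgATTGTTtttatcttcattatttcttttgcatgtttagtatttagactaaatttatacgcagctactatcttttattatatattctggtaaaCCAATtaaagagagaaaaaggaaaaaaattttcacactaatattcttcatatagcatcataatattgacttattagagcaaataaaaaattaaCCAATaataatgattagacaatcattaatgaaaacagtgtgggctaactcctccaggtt
NDE2 (chrIV:302961-303260, plus strand): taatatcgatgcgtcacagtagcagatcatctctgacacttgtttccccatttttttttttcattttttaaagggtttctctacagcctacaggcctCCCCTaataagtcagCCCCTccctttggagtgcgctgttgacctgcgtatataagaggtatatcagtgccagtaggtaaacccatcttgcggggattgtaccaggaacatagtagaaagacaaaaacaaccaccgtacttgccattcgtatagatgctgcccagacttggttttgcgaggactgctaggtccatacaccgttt

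The motifs searched were AGGGG (STRE, bound by Msn2 and Msn4 under stress), CCAAT (Hap2/3/4/5, which activates respiratory genes), CATGTG (Ino2-Ino4), ATTGTT (core of the site of Rox1, the repressor of hypoxic genes), GTGGGG (core of the site of the glucose repressor Mig1) and ACTCAACAA (LORE, the element linked to Mga2). The NDE1 window held CCAAT at positions -102 and -9 and ATTGTT at -193, counted from the first base of the coding sequence. The NDE2 window held AGGGG on the reverse strand at -153 and -138 and none of the others. Of 6001 such windows in the genome, 21.6% held AGGGG, 43.3% CCAAT and 35.2% ATTGTT. A match describes letters only and shows neither binding nor a cause.

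GUT1 and GUT2 both rose in ArgonLT and in OLE1met250. GUT2 (YIL155C, chromosome IX, 51759 to 53708, minus strand) was 2.82-fold higher in ArgonLT than in BY (log2 1.50, q 0.000304), and GUT1 (YHL032C, chromosome VIII, 36379 to 38508, minus strand) 2.30-fold higher (log2 1.20, q 0.000304), in the authors' deposited table. In ArgonST GUT2 rose with a log2 of 0.77 at a q of 0.0476, close to the threshold, and GUT1 had 0.53 at a q of 0.0603. The 2 genes thus lay on either side of the threshold in ArgonST, with log2 values that differ by 0.24, a difference that was not tested.

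In OLE1met250 both genes rose over OLE1met0, GUT2 by 1.14 on the log2 scale (q 0.000304) and GUT1 by 0.66 (1.58-fold, q 0.0137). In mga2p90 GUT1 rose by 0.66 over mga2p90-dox (q 0.0126), while GUT2 was at 0.29 (q 0.357). In the authors' deposited table neither was called in spt23p90, at -0.05 for GUT1 (q 0.882) and -0.18 for GUT2 (q 0.568). GUT1 and GUT2 were each called higher in 3 comparisons and lower in none.

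The windows of the GUT genes, printed because both genes rose in ArgonLT and in OLE1met250, are given in the same form.
GUT1 (chrVIII:38459-38758, minus strand): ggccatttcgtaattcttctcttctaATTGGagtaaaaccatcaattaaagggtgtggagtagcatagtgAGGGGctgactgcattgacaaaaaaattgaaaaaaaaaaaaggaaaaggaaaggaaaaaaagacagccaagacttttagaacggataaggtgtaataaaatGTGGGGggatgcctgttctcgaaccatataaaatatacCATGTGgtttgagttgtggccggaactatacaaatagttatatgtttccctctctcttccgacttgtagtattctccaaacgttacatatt
GUT2 (chrIX:53659-53958, minus strand): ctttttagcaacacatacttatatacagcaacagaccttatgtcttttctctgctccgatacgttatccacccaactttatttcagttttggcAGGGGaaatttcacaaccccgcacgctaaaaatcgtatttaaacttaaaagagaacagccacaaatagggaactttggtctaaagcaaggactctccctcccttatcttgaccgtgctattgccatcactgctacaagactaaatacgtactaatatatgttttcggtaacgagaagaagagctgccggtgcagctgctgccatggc

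The GUT1 window was the only one of the 9 to hold CATGTG, at -41, a motif in 6.93% of all windows. It also held GTGGGG at -79, found in 4.38% of all windows and among the members otherwise in that of NDI1, AGGGG at -180 and CCAAT on the reverse strand at -224. In the GUT2 window AGGGG at -157 was the single match. Over the 9 members AGGGG occurred in 7 windows, CCAAT in 5, ATTGTT and GTGGGG in 2 each, and ACTCAACAA in none, a motif in 0.167% of all windows. Of all windows, 21.6% held AGGGG, 43.3% CCAAT and 35.2% ATTGTT, and the member counts were not tested against these shares. The matches did not overlap one another in the printed windows.

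GPD1 and GPD2, paralogues for the same reaction, were called in different comparisons, GPD1 in ArgonLT and OLE1met250 and GPD2 in ArgonST and with both fragments. GPD1 is known for its induction by osmotic stress through the Hog1 kinase, and GPD2 for its induction when oxygen is lacking. GPD2 (YOL059W, chromosome XV, 217126 to 218448, plus strand) was 1.84-fold higher in ArgonST than in BY in the authors' deposited table (log2 0.88, q 0.000574), the 205th highest of 5436 genes. Its log2 in ArgonLT was 0.18 (q 0.565). GPD1 (YDL022W, chromosome IV, 411825 to 413000, plus strand) had a log2 of 0.36 in ArgonST (q 0.22) and was 2.22-fold lower in ArgonLT than in BY (log2 -1.15, q 0.000304).

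Both GPD genes had lower values in ArgonLT than in ArgonST relative to the same BY group, GPD1 by a log2 difference of -1.50 and GPD2 by one of -0.70, without a test. The GPD1 to GPD2 ratio was 2.51-fold lower in ArgonLT and 1.44-fold lower in ArgonST than in BY. Neither difference was tested, and both were computed from the values in the authors' deposited table. The row of GPD1 spans 411760 to 413000 there and overlaps the row YDL023C. YDL023C was not called in any comparison, at a q of 0.835 in OLE1met250 and 1 in the other 4, and no source used here says whether strand was used in counting.

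With either fragment GPD2 fell, by 0.67 on the log2 scale in spt23p90 (1.59-fold lower than in spt23p90-dox, q 0.0119) and by 0.64 in mga2p90 (1.56-fold lower than in mga2p90-dox, q 0.0207). It was the single member called with the SPT23 fragment. GPD1 had log2 values of -0.18 (q 0.585) and -0.27 (q 0.363) in these comparisons in the authors' deposited table. In OLE1met250 GPD1 rose by 0.97 (1.95-fold, q 0.00772), and GPD2 had 0.46 at a q of 0.091. The coding sequences of GPD1 and GPD2 were identical at 73.8% of 1168 aligned bases, with a longest identical run of 25.

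**Figure D3:**
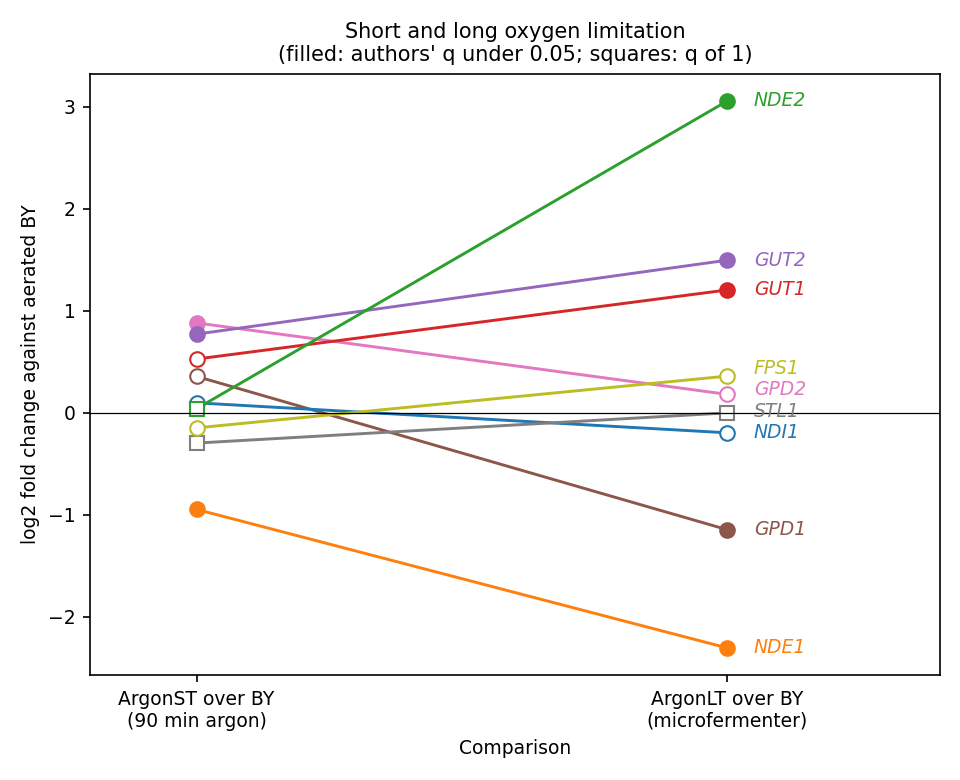
Log2 fold changes against aerated BY (vertical axis) in ArgonST (left) and ArgonLT (right), with 1 line per gene. Filled symbols have a q under 0.05 and squares a q of 1. NDE2 lies at 0.04 in ArgonST and 3.06 in ArgonLT, GPD1 at 0.36 and -1.15, and both GUT genes lie above 0 in both groups. The comparisons share the BY libraries.

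Of the glycerol transporters, STL1 (YDR536W, chromosome IV, 1508005 to 1509714, plus strand) rose in OLE1met250, 5.11-fold higher than in OLE1met0 in the authors' deposited table (log2 2.35, q 0.000304), the 90th highest of 6062 genes. STL1 is known as a gene that glucose represses and osmotic stress induces. Its log2 was 0.50 with the MGA2 fragment (q 0.32). In the other 3 comparisons it was at a q of 1, with values of 0.51 with the SPT23 fragment, -0.30 in ArgonST and -0.0023 in ArgonLT.

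FPS1 (YLL043W, chromosome XII, 49938 to 51947, plus strand) was tested in all 5 comparisons and called in none. Its log2 values in the authors' deposited table ran from -0.15 in ArgonST (q 0.629) to 0.36 in ArgonLT (q 0.199), a range of 0.51.

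Genes around the shuttle were read from 8 lists of 3 to 21 genes. Glycerol-3-phosphate is turned into glycerol by the phosphatases Gpp1 and Gpp2. In the authors' deposited table GPP1 fell in ArgonLT and with the MGA2 fragment, at log2 values of -1.94 and -1.26 (both q 0.000304). It rose in ArgonST by 0.70 (q 0.049) and in OLE1met250 by 0.65 (q 0.012), and was at -0.62 with the SPT23 fragment (q 0.0617). GPP2 rose in ArgonLT by 0.54 (q 0.0424) and fell in OLE1met250, at -1.30 (q 0.000304). GCY1, a reductase of the dihydroxyacetone route of glycerol use, rose by 2.72 in ArgonLT. Of this list of phosphatases and dihydroxyacetone enzymes, 2 rose and 1 fell among 6 tested in ArgonLT, 2 rose among 6 in ArgonST, and 2 rose and 1 fell among 7 in each of OLE1met250 and mga2p90. None was called among 6 tested with the SPT23 fragment. Of all tested genes, 42.5% were called in ArgonLT, 7.27% in ArgonST, 31.2% in OLE1met250, 20.8% in mga2p90 and 12.4% in spt23p90. The list's median log2 ran from -0.15 with the SPT23 fragment to 0.59 with the MGA2 fragment.

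Of the glycerol uptake, export and channel list, 3 rose and 1 fell among 6 tested in ArgonLT in the authors' deposited table. The rises were those of AQY3 (YFL054C), an aquaglyceroporin-like gene, at 2.13, and of the Fps1 activators ASK10 and RGC1 at 1.19 and 1.09, beside no call for FPS1 itself. In OLE1met250 2 rose and 1 fell among 6, with ASK10 at 0.92 and the aquaporin gene AQY2 at -2.00. In mga2p90 2 of 6 rose, AQY2 at 2.76 (q 0.0328) and RGC1 at 0.52 (q 0.0459). In spt23p90 1 of 6 rose, the spore aquaporin gene AQY1 at 2.55, and in ArgonST none of 5. The shares of all tested genes called were 42.5% in ArgonLT, 31.2% in OLE1met250, 20.8% in mga2p90, 12.4% in spt23p90 and 7.27% in ArgonST. The list's median log2 was 1.14 in ArgonLT and between 0.07 and 0.38 in the other comparisons.

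Of the 21 genes of the osmosensing HOG pathway, all were tested in every comparison. In ArgonLT 5 rose and 3 fell, no larger a share than the 42.5% of all tested genes called, led by MSN4, a stress activator, at 1.62 and the sensor gene MSB2 at -1.28. In OLE1met250 5 rose and 1 fell, no larger a share than the 31.2% of all tested genes called. The phosphatase gene PTP2 was at 1.30 and MSN4 at -1.44 there in the authors' deposited table. In mga2p90 2 rose and 1 fell, where 20.8% of all tested genes were called. The single calls were PBS2, the kinase above Hog1, at -0.88 in spt23p90 and HOG1 at 0.64 in ArgonST. The shares of all tested genes called in these comparisons were 12.4% and 7.27%. The list's median log2 lay between -0.16 with the MGA2 fragment and 0.27 in OLE1met250. Of the kinases that modify Gpd1, YPK2 rose in ArgonLT by 1.39 and in ArgonST by 0.75, and YPK1 rose in OLE1met250 by 1.21. SNF1, the kinase that relieves glucose repression, fell in ArgonLT, at -0.70. None of these 3 kinase genes was called with either fragment.

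Among 16 genes listed as activators and repressors of the GUT genes, 6 rose and none fell of 15 tested in ArgonLT. The number called in either direction is close to the 42.5% of all tested genes called there, 24.1% higher and 18.4% lower. SIP4 rose by 3.36, INO2 by 2.43, ERT1 by 1.73 and INO4 by 1.35 in the authors' deposited table. Of those listed as repressors, MIG2 rose by 1.52 and OPI1 by 1.37. Whether each listed gene acts on GUT1 or GUT2 was not tested. SIP4 was not tested in ArgonST against the same BY group or with either fragment, and its level in BY is unknown. INO2, a subunit of the Ino2-Ino4 activator of phospholipid synthesis genes, also rose in mga2p90 by 1.50, in OLE1met250 by 1.30 and in ArgonST by 1.04, and was at 0.42 with the SPT23 fragment (q 0.336). In OLE1met250 5 rose and 3 fell among 16, with ADR1, an activator of genes for growth on glycerol, at 1.97 and MIG1, the glucose repressor, at -1.09. In mga2p90 4 rose and 2 fell among 14, in spt23p90 2 of 15 rose, CAT8 at 0.74 and RDS2 at 0.94, and in ArgonST 2 of 14 rose, INO2 and, at 0.65, MIG2. Of all tested genes, 31.2% were called in OLE1met250, 20.8% in mga2p90, 12.4% in spt23p90 and 7.27% in ArgonST. The list's median log2 ran from -0.06 in ArgonST to 0.54 in ArgonLT.

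The electron acceptor of Ndi1, Nde1, Nde2 and Gut2 is ubiquinone. Of 11 genes for its synthesis, between 1 and 3 rose in each comparison and none fell in the authors' deposited table. The 2 rises in ArgonLT and the 1 in OLE1met250 are smaller shares than the 42.5% and 31.2% of all tested genes called there. COQ2, which joins the ring to the isoprenoid tail, rose by 2.15 in mga2p90, 1.46 in OLE1met250 and 1.46 in ArgonLT. The list's median log2 ran from -0.04 in OLE1met250 to 0.29 in ArgonLT. COQ3 rose in ArgonST by 0.95 (q 0.0476) and in spt23p90 by 0.81 (q 0.0469). Of 13 genes for other dehydrogenases, which include succinate, lactate and proline dehydrogenases and a few that use other acceptors, 5 rose and 2 fell in OLE1met250, led by the proline dehydrogenase PUT1 at 3.16. In the other 4 comparisons 1 to 3 rose and 1 or 2 fell. The shares of all tested genes called were 31.2% in OLE1met250, 42.5% in ArgonLT, 20.8% in mga2p90, 12.4% in spt23p90 and 7.27% in ArgonST. The median log2 of these dehydrogenase genes ran from -0.25 in ArgonST to 0.50 in mga2p90. In ArgonST DLD3, a cytosolic enzyme of the list, rose by 1.25 and SDH2 of succinate dehydrogenase fell by 0.71.

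Other routes that reoxidise or carry NADH went both ways. In ArgonLT 7 rose and 4 fell of 20 tested in the authors' deposited table, where 24.1% of all tested genes rose and 18.4% fell, with the alcohol dehydrogenase genes ADH5 at 2.89, ADH2 at 2.04 and ADH1 at -2.06. ADH1, whose enzyme makes most ethanol in fermentation, also fell in mga2p90 and in spt23p90, at -2.57 and -1.93, and it rose in OLE1met250 by 2.13 (q 0.000304). In ArgonST 4 of 19 rose and none fell, among them FRD1, a soluble fumarate reductase, at 1.19 and YEA6, a mitochondrial NAD carrier, at 1.02. Of all tested genes there, 4.86% rose and 2.41% fell. In OLE1met250 2 rose and 7 fell of 20, where 16.7% of all tested genes rose and 14.5% fell, with the oxaloacetate carrier gene OAC1 at -3.11. In mga2p90 5 rose and 5 fell, and in spt23p90 2 rose and 4 fell, among them DIC1, a dicarboxylate carrier, at -2.33. Of all tested genes, 12.2% rose and 8.58% fell in mga2p90, and 6.86% rose and 5.49% fell in spt23p90. The list's median log2 ran from -0.14 in OLE1met250 to 0.46 in ArgonLT.

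**Figure D4:**
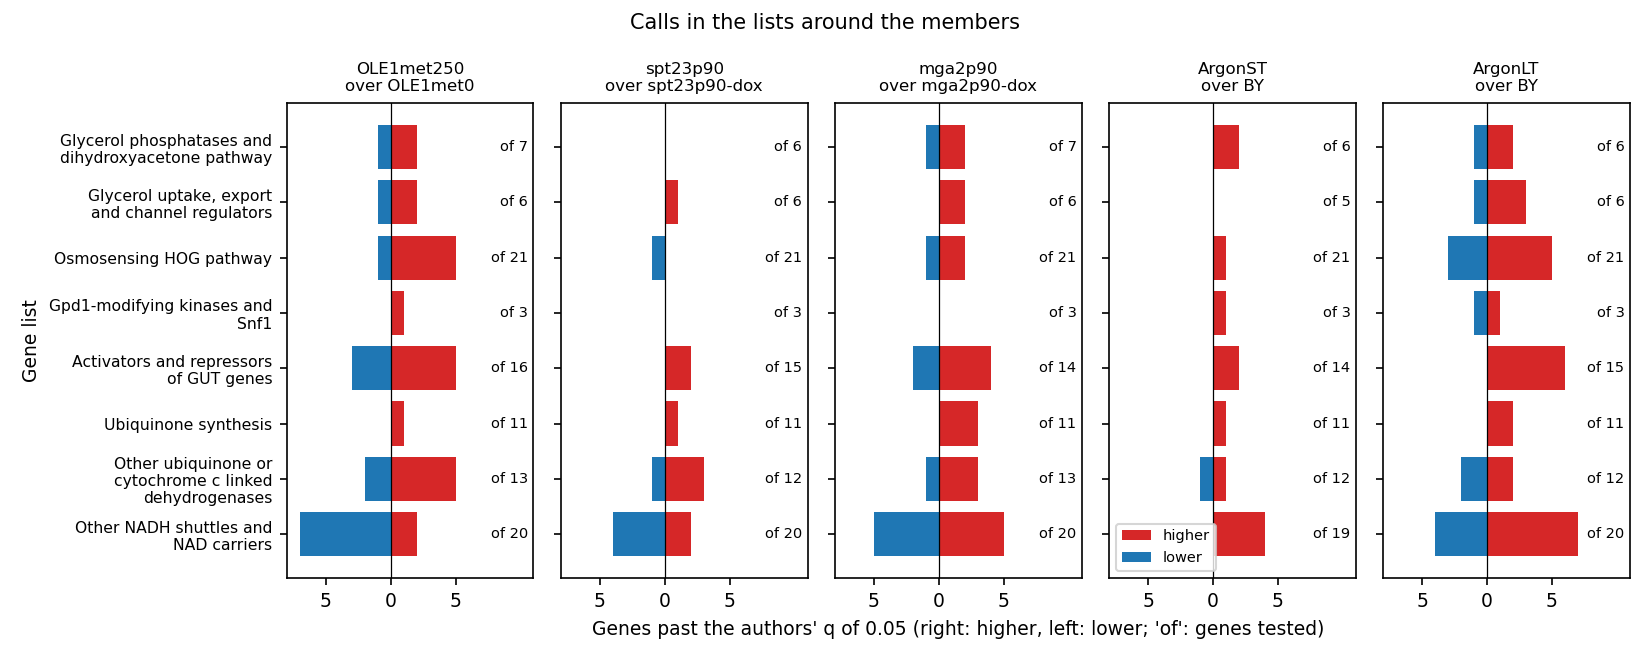
Number of genes past the authors' q of 0.05 in 8 lists around the members (rows) and 5 comparisons (panels). Red bars to the right are genes higher and blue bars to the left genes lower in the first named group, and "of" gives the genes tested. The 20 NADH shuttle and carrier genes had 7 rises and 4 falls in ArgonLT, against 2 rises and 7 falls in OLE1met250. Of all tested genes, 42.5% were called in ArgonLT and 31.2% in OLE1met250.

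For each member tested in all 5 comparisons, the genes of the table with the most similar set of 5 log2 values were found by Euclidean distance among 5252 genes with finite tested values. NDE1 had no close neighbour, its nearest, TMN3, lying 0.84 away. GPD1 had VPS1, a dynamin-like GTPase gene, at 0.16, and NDI1 had PDA1, a subunit of pyruvate dehydrogenase, at 0.15. GDH2, the NAD-dependent glutamate dehydrogenase, was among the 3 nearest of both GUT1 (0.36) and GUT2 (0.44). With OLE1met250 left out of the distance, GDH2 stayed among the 3 nearest of GUT2 but not of GUT1. The nearest of GUT1 was YOL153C at 0.34 and that of GUT2 was RLM1, a transcription factor of the cell wall pathway, at 0.34. GPD2 lay 0.29 from MRP49, of the mitochondrial ribosome, and FPS1 0.18 from UMP1, a proteasome assembly factor. The log2 values of GDH2 in the authors' deposited table were 0.78 in OLE1met250, -0.08 in spt23p90, 0.52 in mga2p90, 0.74 in ArgonST and 1.42 in ArgonLT. These 5 values include 2 that share BY, and likeness over so few points is a description.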

How the data were processed

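The authors' deposited table holds log2 fold changes and q values (p-values adjusted for false discovery) per gene for 5 comparisons, per the file headers, with no unused per-sample columns (0 in all). Trimmomatic 0.33, TopHat2 2.0.14, Cuffdiff 2.2.1 and genome build R64 are named in the submitters' processing notes, without settings, annotation or strand use. Differences in Cuffdiff's scaling between groups would shift all values of a comparison together.

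From the table, 6709 genes were read after 4 emptied lines were left out. A q of 1 was taken as not tested, and exact values of 10 or -10 as ratios with no finite log2; no member had one. Without values per library no group test could be run in addition to the authors' own, and the depth is unknown. Calls were read over the whole table at a q under 0.05. The members and gene lists were chosen with earlier results of these data known, so no list test or adjustment over a list was made. Beside the members, the genes named are up to 3 per list and comparison with the largest absolute change among those called, the 3 nearest genes of each member, and OLE1, SPT23 and MGA2. INO4, MIG2 and OPI1 in ArgonLT, GPP1 and INO2 in spt23p90, and ADH1 in OLE1met250 lie outside this rule and were added after their values were seen.

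RefSeq R64 locus tags matched by systematic name for all 9 members. The table's starts are 1 base lower than in RefSeq for 8 of them; the RefSeq 1-based positions are printed. Motifs were searched on both strands, and coding sequences were aligned globally with Biopython 1.88 under Python 3.11.15. The protein comparison that had been planned was replaced by that of coding sequences. The counting and distance steps were tested on simulated tables.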

Additional observations from a re-analysis of the deposited data

How the results depend on the processing

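At a q under 0.01, 11 of the 16 calls remained. The members called numbered 0 in place of 1 with the SPT23 fragment and 1 in place of 3 with the MGA2 fragment, where GUT1 and GPD2 no longer passed. With a minimum absolute log2 of 1 beside a q under 0.05, 8 of the 16 remained. The numbers were then 2 in OLE1met250 (GUT2 and STL1) in place of 4, 0 with the SPT23 fragment, 1 with the MGA2 fragment (NDE1) and 0 in ArgonST in place of 3. The calls in ArgonLT numbered 5 at a q under 0.01 and also with the minimum absolute log2 of 1. Subtracting the median of all tested genes, at most 0.10, could turn no call round, because the smallest called absolute log2 was 0.51. Counting genes at a q of 1 as tested could change no number of calls, because a call needs a q under 0.05. For 6 of the 7 members with near neighbours, at most 1 of the 3 nearest genes stayed when OLE1met250 was left out of the distance. Restricting motifs to the 250 bases before the start changed no member's matches. No paired analysis was possible because the table holds no values per library, and leaving out single libraries was not possible for the same reason. NDE2 and STL1 were at a q of 1 in 2 and 3 comparisons, and the depth behind those values is unknown.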
